A study of Mus musculus with 60 samples.

Results

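T-box genes encode transcription factors that share a DNA-binding T-domain and set out limb, heart, pharyngeal and cortical fates in the embryo. Outside the tissues that use them, such genes are commonly held silent by Polycomb repressive complex 2 (PRC2), the enzyme complex that trimethylates lysine 27 of histone H3 (H3K27me3). Several of them lie in linked pairs that arose by duplication, Tbx2 beside Tbx4 and Tbx3 beside Tbx5, each pair holding a limb gene of opposite use, Tbx4 in the hindlimb and Tbx5 in the forelimb.

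The H3K27me3 state of 10 T-box genes (Tbx1, Tbx2, Tbx3, Tbx4, Tbx5, Tbx15, Tbx18, Tbx20, Tbr1 and Eomes) was read from CUT&RUN peak lists, out of 21728 protein-coding mouse genes measured in the same way. The members were listed by name, and each was described over a window of its gene body with 20 kb on each side (mm10). A peak was counted at the start site where it touched the region of 1 kb on each side of it.

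All groups were cultures of C3H10T1/2 cells, a mouse embryonic mesenchymal progenitor cell (MPC) line, carrying a lentiviral transgene that encodes human histone H3.1 (H3C2) with C-terminal HA and FLAG tags under the EF1 promoter, kept under puromycin selection. The transgene was unmutated in the H3WT group and had 1 arginine of the histone tail changed to cysteine in the H3R2C, H3R8C, H3R17C and H3R26C groups. The cells kept their own H3 genes, so a mutant histone was present beside endogenous H3, and each genotype was a stably transduced population of a single line. Lists from the anti-H3K27me3 and anti-HA antibodies were used, the latter marking where the tagged histone was recovered.

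In both antibodies the lists of a pair of replicates were identical and were counted once, so that each genotype had 2 independent libraries for each antibody, written here as the first (labelled replicates 1 and 2) and the second (replicate 3). For anti-H3K27me3 in H3R17C, replicate 1 carried a list named for another mark and was left out, and 1 library (replicates 2 and 3) remained. The 9 H3K27me3 lists held 20077 to 24598 peaks with median widths from 1.90 to 3.75 kb and covered on average 3.74% to 7.40% of a gene window. The lists hold no read counts, so the depth behind a value could not be taken from them, and a region outside every peak was listed at 0 rather than shown to be without the mark. In H3WT, no start site of 9 mesenchymal marker genes and none of 6 housekeeping genes had an H3K27me3 peak in both libraries, against 5 of 6 neural and 1 of 3 blood marker genes.

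In H3WT, 3 of the 10 genes (Tbx5, Tbx20 and Eomes) had an H3K27me3 peak over the start site in both libraries, against 8.93% of all genes. The promoters of Eomes, lost in H3R2C, of Tbx20, kept there, and of Tbx4, covered there, are printed with that of Tbx18, which lay under no peak in the 9 H3K27me3 lists, to show how the CpG content of each compares. The sequences are those of RefSeq (GRCm38.p6), which held a promoter of 300 bases, 250 before and 50 after the start, for 6 of the 10 members and none for Tbx2, Tbx3, Tbx5 and Tbx15. Capitals mark CpG dinucleotides.
Eomes, chr9:118477939-118478238, plus strand: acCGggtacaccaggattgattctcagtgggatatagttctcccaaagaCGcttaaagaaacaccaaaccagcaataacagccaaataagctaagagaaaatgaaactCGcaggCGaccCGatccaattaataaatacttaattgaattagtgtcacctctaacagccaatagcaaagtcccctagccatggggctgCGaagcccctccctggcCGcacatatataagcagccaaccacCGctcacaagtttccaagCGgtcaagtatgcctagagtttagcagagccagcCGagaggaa
Tbx20, chr9:24774254-24774553, minus strand: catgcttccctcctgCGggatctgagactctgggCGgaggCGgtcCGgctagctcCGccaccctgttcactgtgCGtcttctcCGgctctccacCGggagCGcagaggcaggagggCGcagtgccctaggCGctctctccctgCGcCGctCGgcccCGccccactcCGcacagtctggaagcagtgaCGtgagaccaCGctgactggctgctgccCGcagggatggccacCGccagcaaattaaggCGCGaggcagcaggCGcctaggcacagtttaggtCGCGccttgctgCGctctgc
Tbx4, chr11:85896515-85896814, plus strand: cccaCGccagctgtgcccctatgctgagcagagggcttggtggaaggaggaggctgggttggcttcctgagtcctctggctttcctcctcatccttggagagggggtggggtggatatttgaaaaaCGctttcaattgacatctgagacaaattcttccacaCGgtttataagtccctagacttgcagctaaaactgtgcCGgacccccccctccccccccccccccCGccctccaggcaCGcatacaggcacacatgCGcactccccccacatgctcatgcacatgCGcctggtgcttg
Tbx18, chr9:87731211-87731510, minus strand: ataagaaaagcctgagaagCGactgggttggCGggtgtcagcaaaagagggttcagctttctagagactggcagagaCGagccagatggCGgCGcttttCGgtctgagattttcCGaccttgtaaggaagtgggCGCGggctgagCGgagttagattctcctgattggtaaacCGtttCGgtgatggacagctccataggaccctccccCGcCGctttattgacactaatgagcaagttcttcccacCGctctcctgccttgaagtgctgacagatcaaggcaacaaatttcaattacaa

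CpG-rich promoters are typical sites of PRC2 recruitment. The Tbx20 promoter held 26 CpG, a number reached by 16.9% of the 32851 promoters of this length, and that of Eomes held 10, reached by 43.5%. The Tbx18 promoter held 15 CpG and the Tbx4 promoter 8, and the median over all promoters was 7. Tbx18 thus had more CpG than Eomes and no peak in any of the 9 lists. Of the entries not printed, those of Tbx1 held 26 and 16 CpG and that of Tbr1 held 7. The 4 printed promoters were picked with their H3K27me3 known, and a relation of CpG count to the mark was not tested. The Tbx4 entry starts 10.3 kb inside the annotated gene, at an internal start. The T-box half-site AGGTGTGA, searched on both strands, was found in 0 of the 7 promoters of the members (Tbx1 has 2 entries) and in 1.28% of all promoters.

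All 300 bases of the Eomes promoter lay under a peak in both H3WT, both H3R8C, the H3R17C and both H3R26C libraries, and 0 bases did in both H3R2C libraries. All 300 bases of the Tbx20 promoter were covered in the H3WT, H3R8C, H3R2C and H3R26C libraries and 0 in the H3R17C library. At the internal Tbx4 promoter, 0 and 186 bases were covered in H3WT and 300 and 236 in H3R2C, with 0 in every other library.

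**Figure D1:**
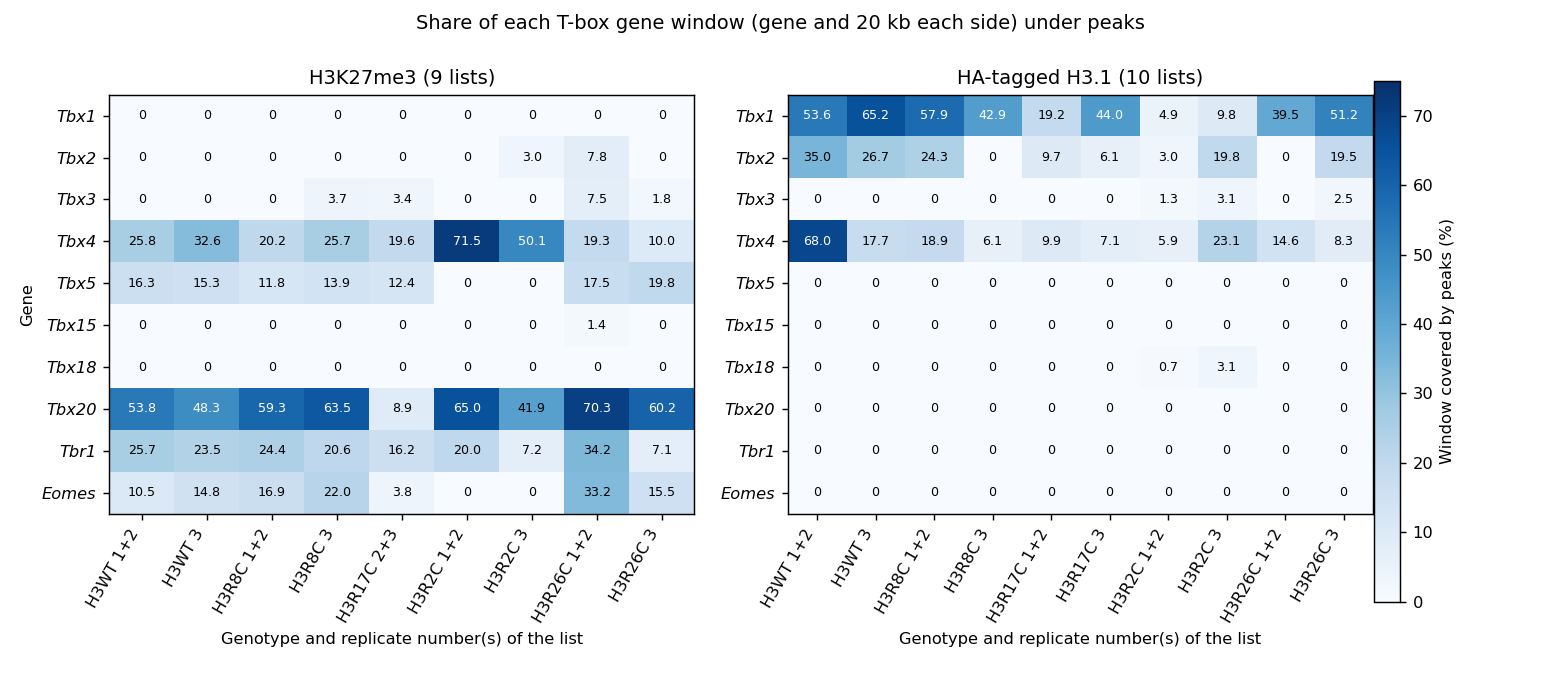
Percent of each T-box gene window (gene body and 20 kb on each side) covered by peaks in the 9 H3K27me3 lists (left) and the 10 HA lists (right), 1 column per list, with the genotype and replicate numbers named under it. The Tbx5 and Eomes rows read 0 in both H3R2C columns of the H3K27me3 panel, where the Tbx4 row reads 71.5 and 50.1, and both genes read 0 in every HA column.

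Tbx5, at chr5:119832668-119885219 on the plus strand, is the forelimb and heart member of the group. In both H3WT libraries a single peak of 15.1 and 14.2 kb covered its start site, reaching 12.3 kb into the gene. The peaks covered 16.3% and 15.3% of the window in H3WT, 11.8% and 13.9% in H3R8C, 12.4% in H3R17C and 17.5% and 19.8% in H3R26C. In H3R2C no peak was listed in the window in either library. H3R2C thus stood apart from each of the other 7 libraries at this gene.

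For a comparison of amounts, the total signal of the peaks in a window was divided by the median of its library over the 4032 windows with signal in every library, so that 1 is the signal of a typical marked gene window. This division removes a change common to all windows of a library, so higher and lower are relative to the other windows. For H3R17C the medians were taken over the 3966 windows with signal in all 9 libraries, on which the H3WT mean of Tbx5 was 1.55 rather than 1.58. The scaled signal of Tbx5 was 1.66 and 1.50 in H3WT, 0.792 and 1.03 in H3R8C, 1.54 in H3R17C, 0 and 0 in H3R2C, and 2.00 and 3.73 in H3R26C. The H3R2C values lay under all others, and the H3R26C values lay over all others. Differences were tested with limma on log2(scaled signal + 0.25) over the 8182 windows kept by the filter on low signal, with Benjamini-Hochberg adjustment over all of them. On that scale Tbx5 fell by 2.87 in H3R2C against H3WT (SE 0.28, limma adjusted p = 0.000773). Because Tbx5 was listed at 0 in H3R2C, the size of this difference depends on the added 0.25 and is no bound. The call held in each of 24 other settings, with adjusted p from 5.20e-07 to 0.0220.

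Tbx3, at chr5:119670669-119684724 upstream of Tbx5, encodes a repressor that acts in limb, heart and mammary development. Its body had no peak in any of the 9 lists. The window was listed at 0 in both H3WT and both H3R2C libraries, and peaks outside the gene body covered 0 and 3.70% in H3R8C, 3.42% in H3R17C and 7.49% and 1.85% in H3R26C. Tbx3 passed the filter only through H3R26C, where its scaled signal was 0.175 and 0.117. Its direction in comparisons with H3R26C was thus set by the filter, and nothing is read from its test.

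The H3K27me3 peaks in the stretch of 148 kb between both genes included the upstream part of the Tbx5 start-site peak and others apart from it. They covered 13.0% and 11.2% of the stretch in H3WT, 9.88% and 13.5% in H3R8C, 14.6% in H3R17C, 0 and 0 in H3R2C, and 18.5% and 18.5% in H3R26C. The Tbx5 body was covered over 23.4% and 23.4% in H3WT and 24.2% and 24.1% in H3R26C. In H3R2C, then, the whole Tbx3-Tbx5 region was without a listed peak in both libraries, while the H3R26C libraries had the widest coverage of the stretch.

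The H3R2C gap reached well past the gene pair. From the Tbx5 start site, neither H3R2C library had an H3K27me3 peak for 1640 kb on the side of lower coordinates and 537 kb on the other, 2176 kb in all. The H3WT libraries had 10 and 11 peaks within that stretch, over 46.7 and 56.7 kb, the H3R8C libraries 8 and 10, the H3R17C library 14, and the H3R26C libraries 22 and 20. HA peaks covered 208 and 205 kb of the stretch in H3WT, 103 and 62.9 kb in H3R8C, 49 and 47.2 kb in H3R17C, 14.3 and 38.2 kb in H3R2C, and 127 and 129 kb in H3R26C. Both H3R2C values lay under all others there. Over all gene windows, mean HA coverage was 2.80% and 6.55% in H3R2C, 15.3% and 11.7% in H3WT and 3.49% to 7.72% in the other genotypes. The part of these differences between lists in the stretch was not tested. The stretch was measured after the Tbx5 values had been seen. On the autosomes, 19 stretches without an H3R2C peak held at least 10 peaks of each H3WT library, and the corresponding numbers were 7 for H3R26C and 6 for H3R8C.

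**Figure D2:**
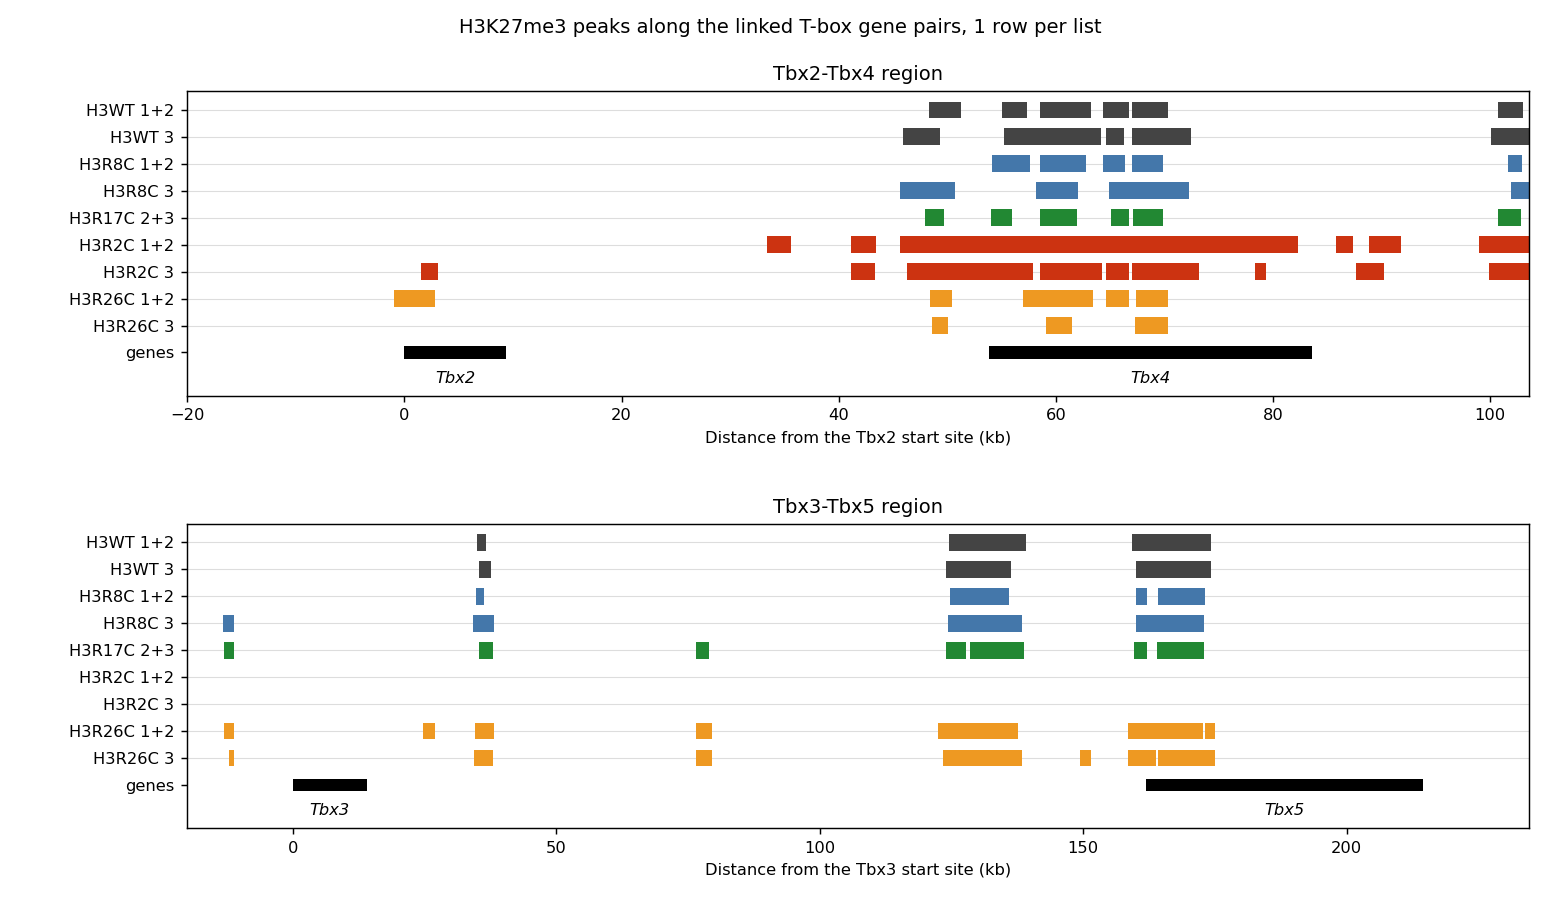
H3K27me3 peaks (coloured bars, 1 row per list) along the Tbx2-Tbx4 region and the Tbx3-Tbx5 region, with distance in kb from the Tbx2 or Tbx3 start site on the x axis and the gene bodies in black. Both H3R2C rows are empty over Tbx3-Tbx5, while over Tbx4 they hold wider peaks than the other rows, up to 36.6 kb.

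Tbx4, the hindlimb and lung member, lies at chr11:85886422-85916097 on the plus strand and changed in the other direction. Peaks covered 25.8% and 32.6% of its window in H3WT, 20.2% and 25.7% in H3R8C, 19.6% in H3R17C, 71.5% and 50.1% in H3R2C, and 19.3% and 9.97% in H3R26C. The H3R2C libraries lay over all others and the H3R26C libraries under both H3WT libraries. The widest peak measured 4.70 and 8.90 kb in H3WT, 36.6 and 11.6 kb in H3R2C, and 6.45 and 3.05 kb in H3R26C. The annotated gene start, which had no peak within 1 kb in H3WT or H3R26C, was covered over its whole region in both H3R2C libraries. It was covered over 772 bases in the first H3R8C library and over 872 bases in H3R17C. Over any annotated transcript start of Tbx4, both H3WT libraries and the first H3R26C library had a peak as well. The nearest H3WT peaks lay 1.13 and 1.38 kb downstream of the gene start.

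The scaled signal of Tbx4 was 1.35 and 1.68 in H3WT, 1.03 and 1.08 in H3R8C, 1.15 in H3R17C, 3.42 and 3.68 in H3R2C, and 0.708 and 0.830 in H3R26C. The H3R2C group did not overlap with any other. The log2 difference was 1.11 in H3R2C against H3WT (SE 0.15, limma adjusted p = 0.00214) and -0.79 in H3R26C against H3WT (SE 0.15, limma adjusted p = 0.0125). The highest signal within the Tbx4 peaks was 20 and 22 in H3WT, 21 and 17 in H3R2C, and 16 and 11 in H3R26C, in units of the deposited signal. Tested on this maximum instead of the total, Tbx4 did not pass in H3R2C (log2 difference 0.01, limma adjusted p = 0.990) or in H3R26C (-0.32, 0.165). On unscaled signal the H3R2C difference was 0.97 and did not pass (limma adjusted p = 0.294).

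Tbx2, upstream of Tbx4 at chr11:85832551-85841948, encodes a repressor closely related to Tbx3. It was listed at 0 in 7 of the 9 lists, the exceptions being the second H3R2C library, with 3.04% of the window covered, and the first H3R26C library, with 7.79% and a peak over the start site. These values came from 1 library of each genotype and were not repeated in the other. Between Tbx2 and Tbx4, over 44.5 kb, peaks covered 6.63% and 7.76% in H3WT, 0 and 11.5% in H3R8C, 3.93% in H3R17C, 28.8% and 21.9% in H3R2C, and 4.50% and 3.37% in H3R26C. The Tbx4 body was covered over 42.8% and 53.4% in H3WT and over 95.6% and 63.8% in H3R2C. The 20 kb downstream of Tbx4 were covered over 11.5% and 17.2% in H3WT and over 45.5% and 31.2% in H3R2C, so the wider H3R2C coverage was on both sides of the gene.

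The linked pairs were alike in H3WT in that the limb gene downstream (Tbx4 or Tbx5) carried the peaks and the upstream gene (Tbx2 or Tbx3) none in its body. In H3R2C the pairs moved apart, Tbx4 rising and Tbx5 falling in the same libraries. The median log2 difference of the windows tested on chromosome 11, where Tbx4 lies, was 0.22 in this comparison, that on chromosome 5, where Tbx5 lies, was -0.05, and that of all windows was 0.08. With the median of each chromosome set to 0, Tbx4, Tbx5 and Eomes kept their calls in H3R2C against H3WT. Fewer cells with the mark and less mark in each cell cannot be told apart in these bulk libraries.

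Eomes, at chr9:118478212-118486132 on the plus strand, encodes a factor of mesendoderm, cortical progenitors and cytotoxic lymphocytes. A peak of 5.05 and 5.40 kb covered its start site in H3WT. Peaks covered 10.5% and 14.8% of the window in H3WT, 16.9% and 22.0% in H3R8C, 3.76% in H3R17C, 0 and 0 in H3R2C, and 33.2% and 15.5% in H3R26C. Both H3R2C libraries were listed at 0, and the H3R17C library had a single peak of 1.80 kb at the start site.

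The scaled signal of Eomes was 0.364 and 0.549 in H3WT, 0.569 and 0.686 in H3R8C, 0.119 in H3R17C, and 0.922 and 1.08 in H3R26C. The H3WT and H3R8C values adjoined, and those of H3R26C lay over all others. Eomes fell by 1.49 on the log2 scale in H3R2C against H3WT (SE 0.22, limma adjusted p = 0.00314), where the H3R2C side was listed at 0. In H3R26C against H3WT the difference was 0.83 (SE 0.22, limma adjusted p = 0.0379), but it no longer passed in 17 of 24 other settings, among them the omission of any single library except the second H3WT library. The H3R2C call was lost on unscaled signal (log2 difference -1.57, limma adjusted p = 0.0681) and held in the other 23 settings.

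The stretch without an H3R2C peak around the Eomes start measured 564 kb. The H3WT libraries had 1 and 3 peaks in it, the H3R8C libraries 3 and 2, the H3R17C library 1, and the H3R26C libraries 5 and 2. No library had more than 1 peak of this stretch outside the Eomes window.

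**Figure D3:**
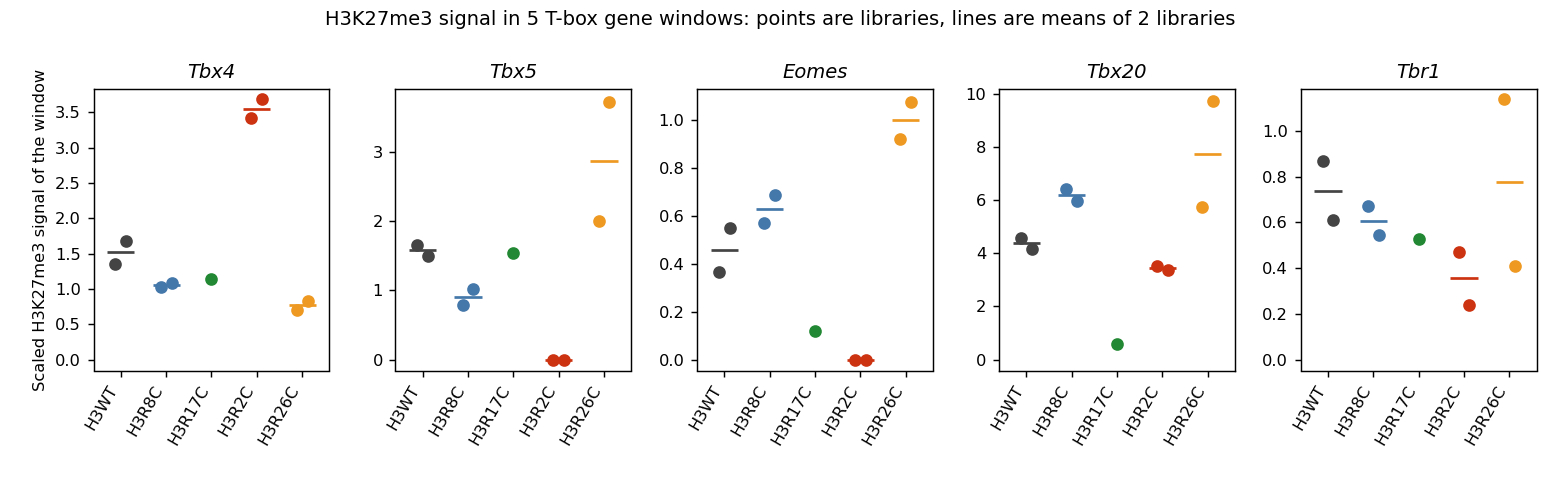
Scaled H3K27me3 signal of the Tbx4, Tbx5, Eomes, Tbx20 and Tbr1 windows (y axis, 1 is the median of windows with signal in every library) by genotype, with 1 point per library and a line at the mean of 2 libraries. H3R2C points lie at 3.42 and 3.68 for Tbx4 and at 0 for Tbx5 and Eomes, and the single H3R17C point for Tbx20 lies at 0.573.

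Tbx20, a cardiac member at chr9:24718138-24774303 on the minus strand, had the highest scaled H3K27me3 signal of the group in each library of H3WT, H3R8C and H3R26C. Peaks covered 53.8% and 48.3% of its window in H3WT, 59.3% and 63.5% in H3R8C, 8.89% in H3R17C, 65.0% and 41.9% in H3R2C, and 70.3% and 60.2% in H3R26C. The H3R17C library lay far under the rest, with peaks over 6.41% of the gene body against 55.7% to 86.4% in the other 8 libraries. Its start region was covered over 603 bases in H3R17C and over its whole length in the other 8.

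The scaled signal of Tbx20 was 4.58 and 4.17 in H3WT, 6.41 and 5.96 in H3R8C, 0.573 in H3R17C, 3.53 and 3.39 in H3R2C, and 5.73 and 9.72 in H3R26C. Both H3R2C values lay under those of H3WT by a small margin, and the log2 difference was -0.32 (95% interval -0.88 to 0.24, limma adjusted p = 0.335). This difference came past the threshold, as lower, in 3 of 25 other settings. In H3R26C against H3WT the log2 difference was 0.74 (SE 0.23, limma adjusted p = 0.0619), and it came past the threshold, as higher, in 4 of 25. Tbx20 thus had peaks in both H3R2C libraries, in which the Tbx5 and Eomes windows had none.

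In H3R17C against H3WT, Tbx20 fell by 2.46 on the log2 scale (SE 0.29, limma adjusted p = 0.0227 in a fit of 9 libraries). H3R17C had a single library there, which the fit takes to vary as the other genotypes do. The call was lost in 11 of 24 other settings, among them the omission of either H3WT, either H3R8C or either H3R2C library, with adjusted p from 0.0638 to 0.0820 in these 6 fits. Among the 6 members tested, Tbx20 had the largest log2 difference in H3R17C against H3WT. The others ranged from -0.90 (Eomes) to 0.44 (Tbx3).

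Tbr1, a factor of deep-layer cortical neurons, lies at chr2:61802930-61814114 on the plus strand. The region of its annotated gene start had no peak in any list, and the peaks of its window lay mostly downstream of the gene. Its RefSeq promoter, with a start 1.52 kb inside the gene, was covered over 300 and 300 bases in H3R8C and over 102 and 300 in H3R26C. It was covered over 0 bases in the H3WT, H3R17C and H3R2C libraries. Peaks covered 25.7% and 23.5% of the window in H3WT, 24.4% and 20.6% in H3R8C, 16.2% in H3R17C, 20.0% and 7.23% in H3R2C, and 34.2% and 7.13% in H3R26C. The H3R2C and H3R26C libraries each spanned a wider range than the difference between the groups, and Tbr1 passed in none of the 5 comparisons.

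Within the Tbr1 body, peaks were listed in both H3R8C libraries (22.4% and 24.6% of the body) and in both H3R26C libraries (21.46% and 21.01%). H3WT, H3R17C and H3R2C libraries were listed at 0 there. The downstream 20 kb were covered over 65.8% and 60.1% in H3WT and over 75.6% and 6.50% in the H3R26C libraries, so that the body peak was shared by H3R26C libraries that differed in the flank.

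**Figure D4:**
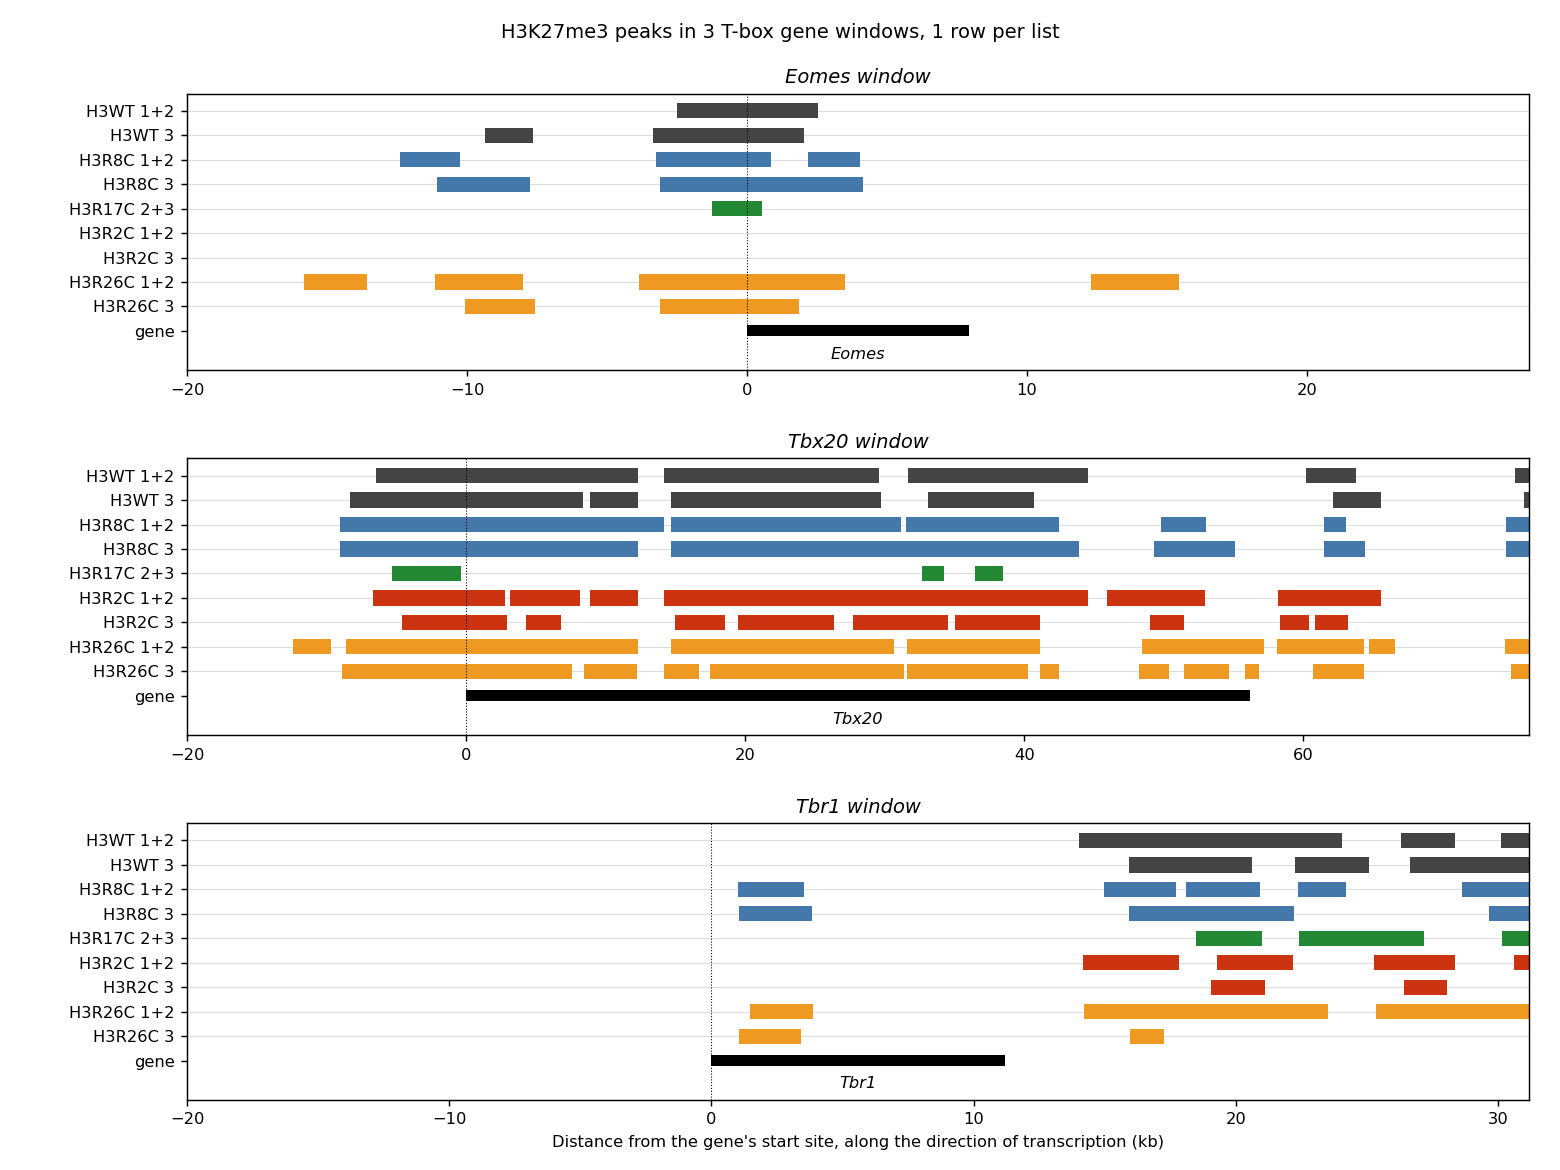
H3K27me3 peaks (coloured bars, 1 row per list) in the Eomes, Tbx20 and Tbr1 windows, with distance in kb from the start site along the direction of transcription on the x axis and the gene body in black. Both H3R2C rows are empty for Eomes and filled for Tbx20, the H3R17C row of Tbx20 covers 8.89% of the window, and the Tbr1 body holds a peak in the H3R8C and H3R26C rows.

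The remaining genes had few or no peaks. Tbx1, a pharyngeal and outflow tract factor at chr16:18580979-18590671, and Tbx18, a factor of somites and the sinus node at chr9:87702800-87731260, had no H3K27me3 peak in any of the 9 lists. Tbx15, a factor of limb mesenchyme and skin at chr3:99240381-99354259, had 1 peak in the first H3R26C library, over 1.40% of the window. With Tbx2 these genes did not pass the filter on low signal, so 6 of the 10 members were tested.

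In H3R2C against H3WT, 2 members (Tbx5 and Eomes) were called lower and 1 (Tbx4) higher, against 14.3% and 21.1% of all windows tested. The peak over the annotated gene start was lost from both libraries at the same 2 genes and gained in both at Tbx4, against 2.33% and 0.971% of all genes. Only genes with such a peak in both H3WT libraries could lose it. These were 3 members and 1941 of all genes, of which 507 lost it. Over any transcript start, Tbx4 already had a peak in both H3WT libraries. H3R2C thus had a start-site peak in both libraries at 2 of 10 members (Tbx4 and Tbx20), against 7.03% of all genes.

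In H3R26C against H3WT, Tbx4 was called lower and Eomes higher, against 12.9% and 11.0% of windows. The fit also placed Tbx3 among the higher windows, 2 in all, but Tbx3 entered only through H3R26C and is not read as a result. The start-site peaks were those of H3WT, at 3 of 10 members against 8.52% of genes, with 0 lost and 0 gained against 0.838% and 0.819% of genes. Of the 1941 genes with such a peak in both H3WT libraries, 182 lost it in H3R26C. The Eomes call depended on the settings, as given above, and the Tbx4 call was lost in 4 of 25 (no filter on low signal, unscaled signal, maximum signal, and the upper 50% of peaks).

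In H3R8C against H3WT, limma called 0 members lower and 0 higher, against 1.56% and 1.33% of windows. At an unadjusted p under 0.05, 2 were lower, Tbx4 (log2 difference -0.43, 95% interval -0.78 to -0.07) and Tbx5 (-0.67, -1.32 to -0.01), and 0 were higher. The start-site peaks were at the same 3 genes as in H3WT, against 9.76% of genes, with 0 lost and 0 gained against 0.377% and 0.732%. Of the 1941 genes with such a peak in both H3WT libraries, 82 lost it in H3R8C. In the H3R17C library, 4 members (Tbx4, Tbx5, Tbx20 and Eomes) had a start-site peak against 8.91% of genes. These comparisons share the H3WT libraries and are given side by side.

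The study set H3R2C and H3R26C side by side in its H3K27me3 profiles, and the difference between them was tested in its own contrast, which does not use the H3WT levels. Against H3R26C, 4 members were lower in H3R2C (Tbx5, Tbx20, Eomes and, through the filter, Tbx3) and 1 higher (Tbx4), against 20.8% and 30.1% of windows. The log2 difference was -3.58 for Tbx5 (SE 0.28, limma adjusted p = 0.000237) and -2.32 for Eomes (SE 0.22, limma adjusted p = 0.000415), both held in all 24 other settings. It was 1.90 for Tbx4 (SE 0.15, limma adjusted p = 0.000237), lost on maximum signal alone (0.0800). For Tbx20 it was -1.06 (SE 0.23, limma adjusted p = 0.00899), lost without either H3R2C library (0.0753 and 0.0928), without the filter and on unscaled signal.

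**Figure D5:**
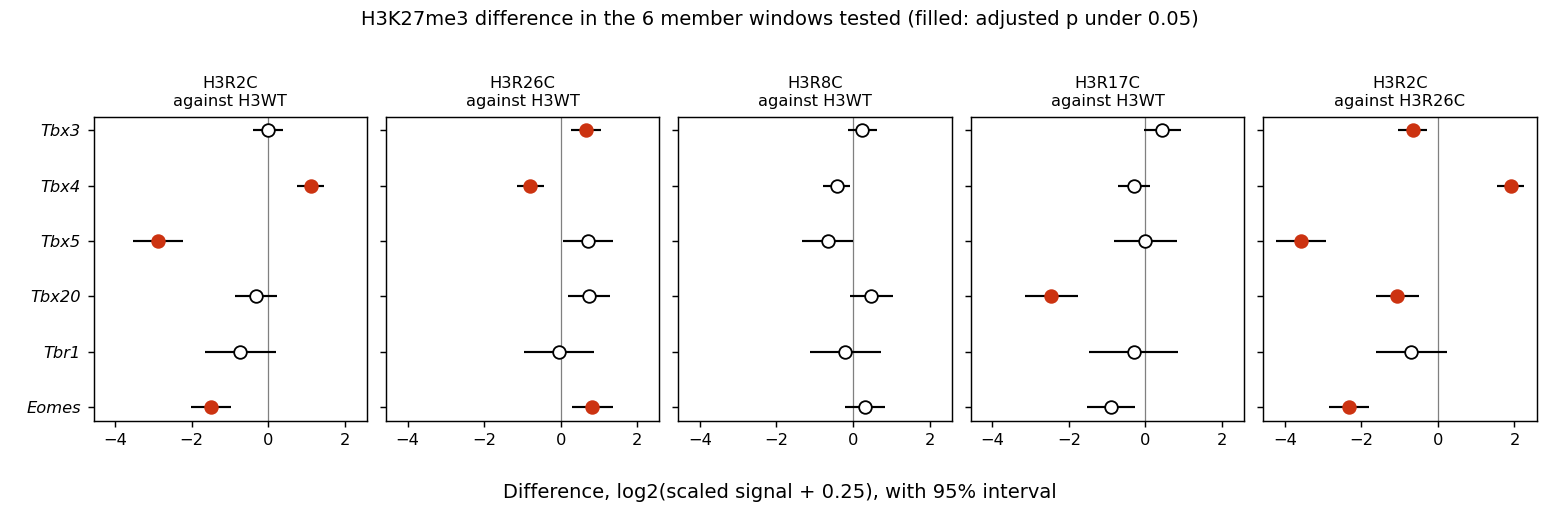
Difference in H3K27me3 of the 6 member windows tested, on the log2(scaled signal + 0.25) scale (x axis), in each of 5 comparisons, with points at the estimate, lines for the 95% interval of the fit, and filled points where the adjusted p was under 0.05. In H3R2C against H3WT the filled points are Tbx4 at 1.11, Tbx5 at -2.87 and Eomes at -1.49, and the filled points of Tbx3 have a direction set by the filter on low signal.

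The HA lists, which mark tagged H3.1, gave another order of the same genes. HA peaks covered 53.6% and 65.2% of the Tbx1 window in H3WT, 57.9% and 42.9% in H3R8C, 19.2% and 44.0% in H3R17C, 4.87% and 9.80% in H3R2C, and 39.5% and 51.2% in H3R26C. Tbx1 was thus covered in every HA list and in no H3K27me3 list, and its 2 H3R2C values lay under all others. The HA lists differed in kind, with 15344 to 52083 peaks of median width from 0.800 to 10.7 kb, and the mean coverage of all gene windows was 2.80% and 6.55% in H3R2C against 15.3% and 11.7% in H3WT. The part of this difference between lists in the Tbx1 values was not tested.

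Tbx4 was also covered in all 10 HA lists, over 68.0% and 17.7% in H3WT, 18.9% and 6.10% in H3R8C, 9.90% and 7.10% in H3R17C, 5.88% and 23.1% in H3R2C, and 14.6% and 8.25% in H3R26C. The first H3WT library lay over all others, and both H3R2C values lay under it and on either side of the second H3WT value. The H3R2C group, apart from H3WT in H3K27me3 at Tbx4, thus overlapped with it in HA. The Tbx2 window was covered over 35.0% and 26.7% in H3WT and over 0 to 24.3% in the other 8 lists.

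At Tbx5, Tbx15, Tbx20, Tbr1 and Eomes no HA peak was listed in any of the 10 lists. With every list at 0 there, the HA lists allow no comparison of tagged H3.1 between H3WT and H3R2C at Tbx5 and Eomes. Tbx3 had HA peaks in both H3R2C libraries (1.29% and 3.05%) and the second H3R26C library (2.50%), and Tbx18 in both H3R2C libraries (0.730% and 3.14%). In H3R2C these peaks touched the start sites of Tbx3, Tbx18 and Tbx4 in both libraries, 3 of 10 members against 7.48% of genes, and 0 of 10 with the upper 50% of peaks, an equal number of top peaks or at least 1 kb covered. The corresponding numbers were 2 in H3R26C (Tbx1 and Tbx4, against 6.49%), 1 in H3R8C (Tbx1, against 4.93%), and 0 in H3WT and H3R17C (against 9.25% and 3.50%).

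Among the other T-box genes (T, Tbx6, Tbx10, Tbx19, Tbx21, Tbx22 and Mga), 4 of 7 had a start-site peak of H3K27me3 in every library of H3WT, H3R8C, H3R17C and H3R2C, and 3 of 7 in H3R26C, against 7.03% to 9.76% of all genes. Of the 6 tested, 1 was lower (T) and 1 higher (Mga) in H3R2C against H3WT, where 14.3% and 21.1% of all windows were. In H3R26C 2 were lower (Tbx10 and Tbx21) and 2 higher (T and Tbx19), against 12.9% and 11.0%, the names other than Mga being given after their values were seen. Mga, which encodes a factor with both a T-domain and a helix-loop-helix domain, had a scaled signal of 0.326 and 0.278 in H3R2C and was listed at 0 in the other 7 libraries. It entered the test only through H3R2C, so its direction was set by the filter and is not read as a result.

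Of 12 partner and target genes of T-box factors, 9 were tested, and 6 were lower and 0 higher in H3R2C against H3WT (also 0 higher at an unadjusted p under 0.05), against 14.3% and 21.1% of all windows. In H3R26C 1 was lower (Nkx2-5) and 2 were higher (Isl1 and Reln), against 12.9% and 11.0%, and in H3R8C 1 was lower (Reln), against 1.56%. In H3R17C limma called 0 in either direction, against 0.346% and 0.644%, with 2 lower and 0 higher at an unadjusted p under 0.05. Over all windows the median log2 difference in H3R2C was 0.08, and over these 9 genes it was -1.27. The list was chosen with earlier results of these data known, so these comparisons with all windows are descriptions. Start-site peaks in H3WT were also more frequent in the list than over all genes, so all windows are not a like background. Start-site peaks were found at 6 of the 12 in H3WT, 7 in H3R8C, 3 in H3R17C, 2 in H3R2C and 7 in H3R26C, against 8.93%, 9.76%, 8.91%, 7.03% and 8.52% of all genes.

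Nkx2-5, the cardiac homeobox partner of Tbx5 and Tbx20, had a scaled signal of 3.85 and 3.86 in H3WT, 3.91 and 4.10 in H3R8C, 3.57 in H3R17C, 0.878 and 1.09 in H3R2C, and 0.780 and 0.927 in H3R26C. On the log2 scale it fell by 1.74 in H3R2C (limma adjusted p = 0.000425) and fell by 1.90 in H3R26C (limma adjusted p = 0.000922), and the mutants did not pass against each other (difference 0.16, 95% interval -0.18 to 0.49). This differed from Tbx5 and Eomes, which were listed at 0 in H3R2C and had their highest values in H3R26C. Against H3WT, the H3R26C difference of Tbx5 did not pass and the call of Eomes depended on the settings.

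Isl1, a LIM-homeobox gene of heart and hindlimb progenitors, was likewise listed at 0 in H3R2C and highest in H3R26C. Its scaled signal was 0.379 and 0.677 in H3WT, 1.01 and 1.31 in H3R8C, 0 in H3R17C, 0 and 0 in H3R2C, and 2.72 and 4.28 in H3R26C, and in H3R2C it lay under H3R26C by a fitted log2 difference of -3.87 (SE 0.28, limma adjusted p = 0.000217). Pitx1, which sets hindlimb identity upstream of Tbx4, had 3.94 and 4.63 in H3WT, 1.54 and 1.47 in H3R2C and 4.76 and 6.50 in H3R26C. Pitx1 thus fell in H3R2C (log2 difference -1.37, SE 0.17, limma adjusted p = 0.00170) where Tbx4 rose.

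Reln, a target of Tbr1 that encodes the extracellular guide of cortical layering, had a scaled signal of 1.29 and 0.990 in H3WT, 0.341 and 0.355 in H3R8C, 1.31 and 1.36 in H3R2C and 4.11 and 4.74 in H3R26C. It was higher in H3R26C (log2 difference 1.76, SE 0.16, limma adjusted p = 0.00147) and lower in H3R8C (-1.21, SE 0.16, limma adjusted p = 0.0167), and in H3R2C the difference was 0.20 (95% interval -0.17 to 0.57). These 5 genes were named because they had the lowest adjusted p among the 19 other T-box, partner and target genes in any comparison.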

How the data were processed

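C3H10T1/2 cells carrying H3WT, H3R2C, H3R8C, H3R17C or H3R26C were profiled by CUT&RUN, with 3 labelled replicates per genotype and antibody. The authors aligned reads to mm10 and called peaks with SEACR 1.3 (stringent, norm 0.01). The deposited lists give the position, total signal and maximum signal of each peak, and this signal was not scaled between libraries. Lists were given for 30 of 60 samples, and the other 30 (IgG or anti-H3K4me3) are not analysed here. Identical lists were counted once, and 1 anti-H3K27me3 list of H3R17C, named for another mark than its label, was left out, leaving 9 H3K27me3 and 10 HA lists from 29 samples.

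Windows were gene bodies of the 21728 protein-coding GENCODE genes with 20 kb on each side. A peak's total signal was shared out by the part of it inside the window, and window sums were divided by the library's median over the 4032 windows with signal in every library. Windows with signal in every library of at least 1 genotype were tested. Log2(signal + 0.25) was compared with limma 3.58.1 (R 4.3.3; lmFit and eBayes with trend) over 8 libraries of 4 genotypes, two-sided, with Benjamini-Hochberg adjustment and a threshold of 0.05. H3R17C was compared in a fit of 9 libraries. Start-site peaks (1 base of overlap or more) and percent covered are descriptions, since 2 against 2 libraries allow no exact p under 0.333. The study describes its CUT&RUN replicates as independent and gives a read total for each, which was not used here. Among the deposited lists, a pair in each set was identical, and p-values measure the spread between the libraries counted here. The fit was also run on simulated data with even noise and changes in strongly marked windows only. That run does not bear on windows of low signal, such as those of Eomes and Tbr1.

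The members and lists were chosen with earlier results of these data known. All 10 members are named, together with at most 5 genes, those of lowest adjusted p, from 7 other T-box genes and 12 partner and target genes, and T, Tbx10, Tbx19 and Tbx21 were named after their values were seen. Library medians for H3R17C were taken over the 3966 windows with signal in all 9 libraries. Alternatives covered the pseudocount, filter, scaling, peak threshold, window, replicate handling and the omission of each library. Scripts used Python 3.11.15 with pandas 2.3.3 and numpy 2.4.6.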

Additional observations from a re-analysis of the deposited data

Results flagged for a closer look

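The H3R2C and H3R26C effects on the same window differed, by the contrast between both mutants, at 5 members. The H3R2C effect minus the H3R26C effect was -0.66 for Tbx3, 1.90 for Tbx4, -3.58 for Tbx5, -1.06 for Tbx20 and -2.32 for Eomes on the log2 scale, with 2 libraries in each genotype. Tbx3 entered the test only through H3R26C, so its direction was set by the filter on low signal and is not read as a result.

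The list deposited for H3R17C anti-H3K27me3 replicate 1, whose name gives another mark than its label, was used in no comparison and had peaks at members that H3WT lists at 0. It covered 13.5% of the Tbx1 window, 10.1% of the Tbx3 window, 1.53% of the Tbx15 window and 9.64% of the Tbx18 window. Its peaks covered the whole start region of Tbx3 and 1491 bases of that of Tbx18, and were absent at Tbx5, Tbx20 and Tbr1. The list held 37092 peaks and covered the start site of 38.9% of genes.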

How the results depend on the processing

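Of 704 log2 differences of the members under other settings, 609 kept their direction and side of the threshold, 58 were no longer past it, 17 came past it and 20 changed direction. The cause of each change was not tested, other than where fewer genes or libraries entered by construction. In H3R2C against H3WT (2 members lower, 1 higher), 0 were lower with signal required in every library, which leaves out Tbx5 and Eomes, and 1 on signal as deposited, and 0 were higher on signal as deposited and on maximum signal. Without single libraries 2 to 3 were lower. In H3R26C against H3WT (1 lower), 0 were lower without the filter, on signal as deposited, on maximum signal and with the upper 50% of peaks. The number called higher, 2 with Tbx3 included, was 1 with pseudocount 0.05, with scaling by the list's total signal, with overlapping peaks counted whole and without the trend. It was also 1 with signal in every library, which leaves out Tbx3 and Eomes, and that call was of Tbx20. This number was 0 without the filter, on signal as deposited, on maximum signal and over the start-site region. The same held with 5 kb flanks, with the upper 50% of peaks and with an equal number of top peaks. With all 3 labelled replicates it was 4, and without single libraries 0 to 2 (0 without the first H3WT library or either H3R2C library). In H3R2C against H3R26C (4 lower, 1 higher), 2 were lower without the filter and on signal as deposited, 1 with signal in every library, and 2 to 5 without single libraries (2 without either H3R2C library), and 0 were higher on maximum signal. In H3R17C against H3WT (1 lower, 0 higher), 0 were lower with pseudocount 1, without the filter, on signal as deposited, without the trend and with the replicate block, 2 were lower and 1 higher with all 3 labelled replicates, and 0 to 1 were lower without single libraries. In H3R8C against H3WT 2 were lower with all 3 labelled replicates, a setting that counts identical lists as separate libraries.

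Tbr1 in H3R26C against H3WT (-0.03) was 0.0019 with pseudocount 1, 0.34 on maximum signal, 0.081 with all 3 labelled replicates, 0.82 with 5 kb flanks, 0.047 with the upper 50% of peaks, 0.041 with an equal number of top peaks, 0.15 without the first and -0.23 without the second H3WT library, and -0.57 to 0.57 without single libraries. In H3R8C against H3WT, Tbr1 (-0.20) was 0.53 with 5 kb flanks and Eomes (0.32) was -0.00042 on maximum signal. Tbx5 in H3R17C against H3WT (-0.0028) was 0.051 with chromosome medians set to 0, 0.0040 with overlapping peaks counted whole, 0.028 with 5 kb flanks, 0.0082 with the upper 50% of peaks, 0.066 and -0.059 without the first and second H3WT library, 0.0023 without the first H3R8C library, 0.0012 without the first H3R2C library, and 0.0034 and 0.027 without the first and second H3R26C library.

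Members with an H3K27me3 start-site peak numbered 5 in place of 3 in H3R8C over any transcript start, and 2 in place of 4 in H3R17C with the upper 50% of peaks or at least 1 kb covered. For HA, H3WT went from 0 to 1 by the majority of 3 labelled replicates and 1 without either library, H3R8C from 1 to 0 with at least 1 kb covered, 2 by the majority and 1 to 2 without single libraries, and H3R17C from 0 to 1 over any transcript start and 0 to 1 without single libraries. HA start sites in H3R2C went from 3 to 0, and in H3R26C from 2 to 1, with the upper 50% of peaks, an equal number of top peaks or at least 1 kb covered.

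Same-numbered libraries of different genotypes share a number and no stated source. Their deviations correlated by -0.03 to 0.27, and the replicate block left every member count other than the H3R17C one as it was. Over all windows, H3R2C against H3WT had 1170 lower and 1729 higher calls, against 415 and 754 on signal as deposited and 397 and 563 without the filter. H3R2C against H3R26C had 1702 and 2465, against 574 and 1433 on signal as deposited, so that the higher share went from 59.2% to 71.4%. H3R26C against H3WT had 1057 and 897, against 115 and 96. On signal as deposited the median of all windows was -0.19 in H3R26C against H3WT, 0.26 in H3R2C against H3R26C and -0.25 in H3R17C against H3WT. With 2 libraries a genotype and no read counts, neither depth nor a mark under the calling threshold can be read from these lists.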
